A study of Mus musculus with 28 samples.

Results

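The immediate early response genes examined here were Egr1, Fos, Fosb, Jun, Junb, Jund, Ier2, Ier3, Atf3 and Dusp1, taken as a list of 10 gene symbols and joined by gene identifier across the RNA-seq, chromatin RNA and peak files. Of these 10 genes, 9 were among the 15384 genes with a value in each RNA-seq library, and Fosb was not. All 10 were annotated in the chromatin RNA counts and appeared in the list of SSRP1 peaks. The study examined FACT, the histone chaperone made of SSRP1 and SUPT16, in E14 cells, a mouse embryonic stem cell line. In the RNA-seq set used here, 4 control libraries came from cells given a scramble shRNA vector and 4 KD libraries came from cells given a pair of Ssrp1 shRNA vectors, all with ERCC spike-in RNA. Puromycin at 2 µg/ml was added 48 h after transfection, for 24 h, in both groups. ChIP-seq of SSRP1 and of SUPT16 (1 peak list each, from 2 replicates) and 2 chromatin-associated RNA libraries came from E14 cells without knockdown. All these cells were grown in medium with fetal bovine serum and LIF, and no serum withdrawal or stimulus was described, so that the values are those of growing cultures. A further table, used here for a single value, set early neural progenitors (3 libraries) against embryonic stem cells; the progenitors came from E14 embryoid bodies given 1 µM retinoic acid for 4 days and then kept in serum without LIF for 3 days. The labels do not say whether the 4 libraries of a group came from separate transfections, and p-values measure only the spread between these libraries.

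Immediate early genes are transcribed within minutes of a growth factor, stress or calcium signal, without prior protein synthesis. MAP kinases and cAMP signalling act on factors already bound at their promoters, among them SRF with its ternary complex partners at serum response elements and CREB at cAMP response elements (CRE), and paused RNA polymerase II is released into short transcription units. Many of the products are transcription factors: Fos and Jun family proteins pair as AP-1, EGR1 binds GC-rich sites, and ATF3 is a stress-induced member of the ATF/CREB family. Their mRNAs are short-lived. FACT binds nucleosomal histones and accompanies transcribing polymerase through chromatin.

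Reads recovered from the deposited values numbered between 4602278 and 6680919 per control library and between 9433193 and 19856032 per KD library, so that the depth differed with the group. Ssrp1 itself lay between 223 and 261 in the control libraries and between 24.1 and 28.9 in the KD libraries, in the deposited library-size normalised unit used for all RNA-seq values here, whereas Supt16 had means of 319 and 504, a difference of 0.66 on the log2 scale that was not called. These are RNA values, and the paper reports from mass spectrometry that SUPT16 protein was depleted along with SSRP1. The library-size unit did not give equal totals. Summed over genes, its values came higher in every KD library than in any control library. The median log2 fold change of all genes was -0.03 in this unit and -0.04 with TMM scaling. It was -0.45 as CPM, which sets equal totals. Sums of markers below are in the library-size unit. Cell type markers moved with the group as well. The 8 pluripotency markers, Pou5f1, Nanog and Sox2 among them, summed to between 1587 and 1714 in control and between 4610 and 5111 in KD libraries, and 6 of them were called higher, or 8 with spike-in scaling, 1 after quantile normalisation and 2 as CPM. The 7 measured epithelial and trophectoderm markers summed to between 995 and 1332 in control and between 729 and 775 in KD libraries, with 5 called lower, Krt15 and Krt14 the most. The sums for primitive endoderm ranged from 54.2 to 80.5 in control and from 19.0 to 24.3 in KD libraries (4 of 5 called lower), those for mesoderm from 22.6 to 36.4 and from 8.75 to 14.1 (2 of 3), and those for fibroblasts from 43.8 to 57.8 and from 12.1 to 13.9 (3 of 4). Of 5 neural markers 1 was called higher (Tubb3) and 2 lower. Lower calls in the epithelial, primitive endoderm, mesoderm, fibroblast and neural lists became 3, 1, 1, 3 and 0 with spike-in scaling. After quantile normalisation they were 5, 2, 1, 3 and 0, and as CPM 6, 5, 2, 3 and 3. Over all 15384 genes, 8.07% were called higher and 20.6% lower with library-size values. The counts higher and lower were 7394 and 1082 with spike-in scaling, 1518 and 1656 after quantile normalisation, and 343 and 4696 as CPM. Of the defining markers, Elf5, Foxa2, T, Mixl1, Dcn, Lum and Dcx had no value. The part of these marker shifts in the results on the immediate early genes was not tested. In bulk libraries, fewer cells that express a gene cannot be told apart from less RNA per cell.

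Between KD and control cells, 3 of the 9 measured genes were called higher (Ier3, Egr1 and Ier2) and 2 were called lower (Atf3 and Jun), at a log2 fold change beyond 1 and an adjusted p under 0.01. Among all 15384 genes, 8.07% were called higher and 20.6% lower, 1242 and 3163 genes. With spike-in scaling, 6 of the 9 were called higher and 1 lower, and as CPM 1 higher and 2 lower. Over all genes, 7394 were called higher and 1082 lower with spike-in scaling, and 343 and 4696 as CPM. The remaining 4 genes, Junb, Jund, Dusp1 and Fos, moved by less than the fold threshold with library-size values. The genes thus split within families: Junb and Jund lay above their control levels and Jun below.

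Jun, Junb and Jund encode the Jun proteins of AP-1, and each is a gene of 1 exon. Jun (chromosome 4, 95049036 to 95052222, minus strand; all positions on mm10) had values of 26.7, 25.5, 23.3 and 29.8 in the control libraries and 7.79, 8.56, 7.45 and 7.25 in the KD libraries. All KD libraries thus lay well below the lowest control library. Its level fell by 1.70 on the log2 scale (SE 0.12, limma adjusted p = 3.22e-13), from 26.3 ± 2.71 to 7.76 ± 0.577 (SD, n = 4 libraries in each group, as for all values below). Junb (chromosome 8, 84976909 to 84978748, minus strand) measured 62.8, 51.8, 43.1 and 56.1 in control and 98.1, 101, 105 and 103 in KD libraries, without overlap. The means were 53.4 ± 8.25 and 102 ± 3.08, a log2 fold change of 0.94 (SE 0.080, adjusted p = 3.50e-11) that stayed under the fold threshold. Jund (chromosome 8, 70697739 to 70700616, plus strand), the Jun gene that is least dependent on a stimulus, measured 81.9, 72.5, 67.1 and 83.8 in control and 143, 146, 141 and 145 in KD libraries. Its KD libraries were close to each other and far above all controls. The log2 fold change of Jund was 0.92 (SE 0.066, adjusted p = 8.95e-13).

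Fos (chromosome 12, 85473901 to 85477269, plus strand, 4 exons), the founding partner of Jun in AP-1, was among the weaker expressed of the genes and moved least with library-size values, though not as CPM. It had 10.3, 11.7, 10.05 and 14.5 in the control libraries and 9.76, 9.79, 8.68 and 8.35 in the KD libraries, so that the highest KD library lay just below the lowest control. The log2 fold change was -0.32 (SE 0.14), with an adjusted p of 0.0376 from limma. Fosb (chromosome 7, 19302696 to 19310045, minus strand), its close relative, carried no value per library and no comparison was made. The authors' mean log2 expression of Fosb in the table of neural progenitors against embryonic stem cells was 1.48, which exceeded 15.6% of the genes there. Which libraries that mean covers was not given in the sources used here, and it may take in both cell types.

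Atf3 (chromosome 1, 191170296 to 191183333, minus strand, 4 exons), a stress-induced bZIP factor, fell most. It measured 49.7, 44.4, 31.2 and 43.8 in control libraries and 4.45, 7.62, 6.35 and 7.19 in KD libraries. Control replicate 3 was the lowest of the controls and still far above the highest KD library. The level fell by 2.64 on the log2 scale (SE 0.14, adjusted p = 3.20e-15), from 42.3 ± 7.83 to 6.40 ± 1.41, which is a 6.60-fold lower mean.

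Egr1 (chromosome 18, 34861207 to 34864956, plus strand, 2 exons) encodes a zinc finger transcription factor and is a standard readout of ERK signalling. Its values were 5.17, 8.78, 7.71 and 4.24 in control and 19.9, 16.2, 16.3 and 16.99 in KD libraries. The control libraries rested on 31 to 51 reads each, the KD libraries on 161 to 293, and the groups did not overlap. The log2 fold change was 1.40 (SE 0.17, adjusted p = 2.05e-08), with means of 6.48 ± 2.12 and 17.3 ± 1.74.

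Ier2 (chromosome 8, 84661331 to 84662852, minus strand, 1 exon), a nuclear protein, measured 29.4, 41.5, 34.8 and 29.4 in control and 86.3, 81.4, 85.02 and 82.04 in KD libraries. Its lowest KD library lay far above its highest control, control replicate 2. The log2 fold change was 1.31 (SE 0.085, adjusted p = 1.23e-13). Ier3 (chromosome 17, 35821713 to 35822911, plus strand, 2 exons), which encodes a short-lived regulator of survival signalling, measured 6.40, 8.43, 4.13 and 6.02 in control and 20.9, 20.7, 19.4 and 16.6 in KD libraries. It rose most of the 9 genes, 3.11-fold in the means, with a log2 fold change of 1.59 (SE 0.16, adjusted p = 5.74e-10). Control replicate 3 rested on 23 reads of Ier3. Gm19645, annotated on the same strand, overlaps Ier3, so that the assignment of its reads is uncertain.

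Dusp1 (chromosome 17, 26505591 to 26508472, minus strand, 4 exons) encodes a dual-specificity phosphatase that inactivates MAP kinases and so closes the loop on the signal that induces it. It measured 18.1, 12.6, 11.8 and 14.4 in control and 19.03, 18.2, 22.02 and 20.1 in KD libraries. Control replicate 1 and KD replicate 2 were almost level, and the other controls lay lower. The log2 fold change was 0.48 (SE 0.12, adjusted p = 8.18e-04), under the fold threshold. An unnamed gene on the opposite strand overlaps Dusp1; strand handling in the counting was not given in the sources used here.

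**Figure D1:**
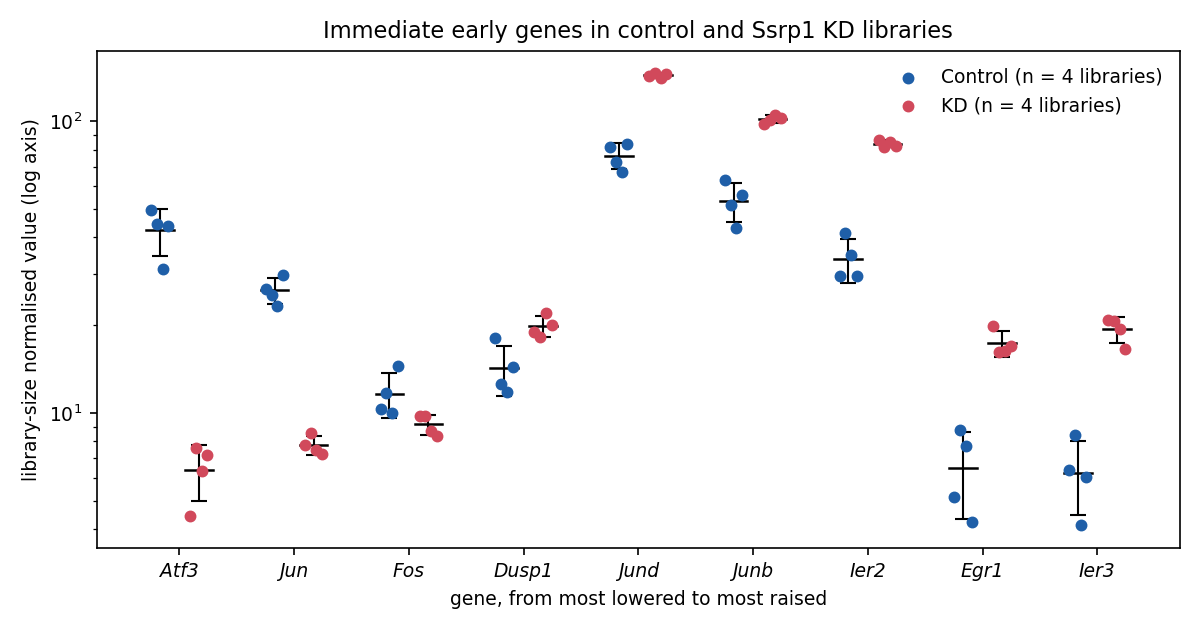
Library-size normalised values (log axis) of the 9 immediate early genes with values, in the 4 control and 4 KD libraries. Points are libraries, horizontal lines are means and bars are SD. Atf3 and Jun sit lower in all KD libraries, Ier2, Egr1 and Ier3 higher, and the groups of Fos and Dusp1 nearly touch.

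The 9 genes all had every KD library on a single side of every control library, and an exact two-sided permutation test gave p = 0.0286 for each, the smallest that 4 against 4 libraries allow. This was common across the transcriptome, since 73.3% of all genes had such a separation. An adjusted p under 0.01 was reached by 8 of the 9 genes and by 72.8% of all genes. The median log2 fold change was 0.92 over the 9 genes and -0.03 over all genes, and 6 of the 9 lay above 0 against 48.4% of all genes. The median coefficient of variation was 17.4% for these genes against 11.3% for all genes in control libraries, and 8.11% against 7.31% in KD libraries. Egr1 had the widest control spread, 32.8%, and Jund the narrowest KD spread, 1.54%. These spreads include counting error, and the control libraries were shallower. Egr1 rested on 31 to 51 reads and Ier3 on 23 to 49 in control libraries, and Jund on 1156 to 2508 in KD libraries. The part of counting error was not tested.

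The size of each change, and for Fos the direction, depended on how libraries were scaled. The median of all genes was -0.03 with the library-size values, 0.95 with the spike-in scaled values, 0.05 after quantile normalisation and -0.45 as CPM of the recovered reads, and higher calls made up 28.2%, 87.2%, 47.8% and 6.81% of all calls in that order. Fos was at -0.32 with library-size values, 0.66 with spike-in scaling, 0.23 after quantile normalisation and -0.73 as CPM (limma adjusted p = 9.20e-05). Dusp1 was at 0.48 with library-size values, 1.47 with spike-in scaling, which passed the threshold, 0.76 after quantile normalisation and 0.06 as CPM (adjusted p = 0.635). Jun fell by 1.70 with library-size values, by 0.71 with spike-in scaling, where its groups overlapped, and by 2.11 as CPM. Atf3 fell by at least 1.64 under each of these scalings. Ier3 kept a log2 fold change of at least 1.18, whereas Egr1 and Ier2 came to 0.99 and 0.88 as CPM, just short of the threshold. Junb and Jund passed it only with spike-in scaling among these, at 1.95 and 1.94. Taken relative to the median of all genes under the same scaling, Egr1 lay 1.42 to 1.97 above that median, Ier3 1.61 to 2.13, Ier2 1.02 to 1.37, Junb 0.59 to 1.00, Jund 0.50 to 0.98 and Dusp1 0.51 to 0.71, over 6 scalings that also took in TMM and DESeq2 size factors. On the same basis Jun lay between -1.66 and -1.47, Atf3 between -2.60 and -2.44 and Fos between -0.30 and 0.18. The 8 genes other than Fos thus lay on the same side of the median of all genes under these 6 scalings, while their distance from 0 varied. All of these but quantile normalisation differ by a single factor per library, which subtracting the median largely removes. Their agreement on this basis was therefore built in, and only quantile normalisation could have differed.

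**Figure D2:**
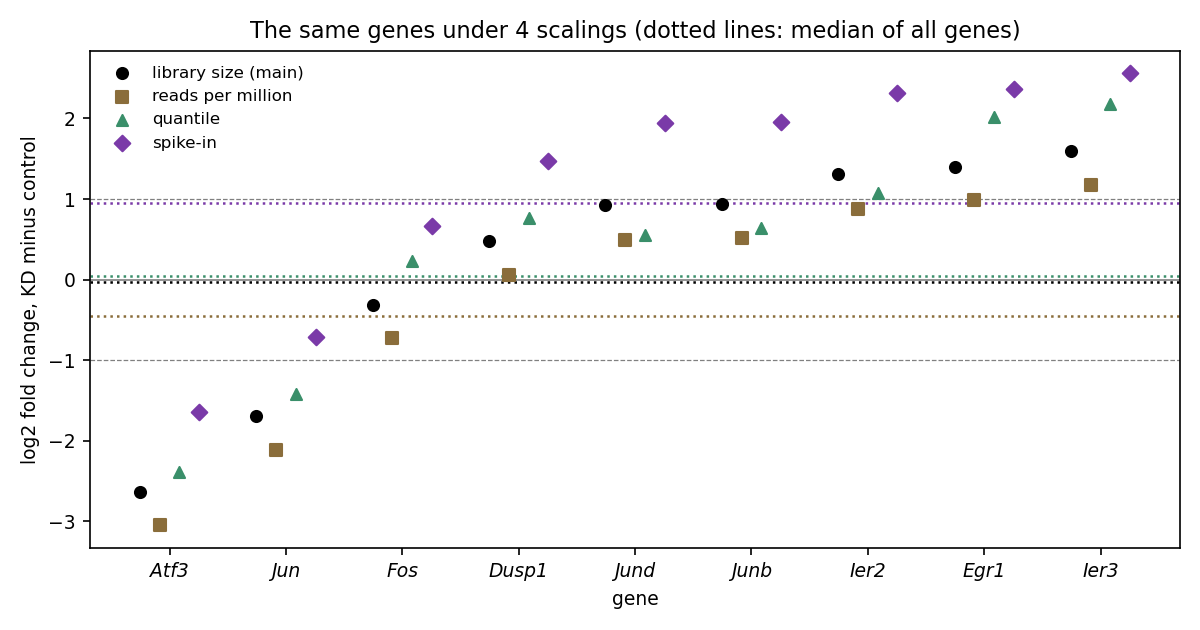
Log2 fold change (KD minus control) of the 9 genes under library-size, CPM, quantile and spike-in scaling, with a dotted line at the median of all genes for each. Dashed grey lines mark a log2 fold change of 1 and -1. Spike-in values lie highest for every gene, and Fos crosses 0.

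Compared per kb of exon on the library-size scale, the control levels fell into 3 bands. Junb (29.0 ± 4.48), Jund (26.5 ± 2.75), Ier2 (22.2 ± 3.77) and Atf3 (21.4 ± 3.96) were highest, each with an SD range that overlapped that of its neighbour in the order. Jun followed at 8.26 ± 0.851, then Dusp1 at 7.32 ± 1.44, Ier3 at 5.73 ± 1.62 and Fos at 5.57 ± 0.971, again with neighbours whose SD ranges overlapped. Egr1 was lowest at 2.11 ± 0.691, above only 7.40% of all genes. In KD cells the order was different. Junb (55.3 ± 1.68) and Ier2 (55.0 ± 1.54) overlapped at the top, with Jund just below at 50.0 ± 0.772 and then a wide step to Ier3 at 17.8 ± 1.82, Dusp1 at 10.2 ± 0.854, Egr1 at 5.65 ± 0.565 and Fos at 4.37 ± 0.354. Atf3 had dropped to 3.24 ± 0.711 and Jun to 2.43 ± 0.181. Atf3 thus moved from the 77.9th to the 31.7th percentile of all genes and Egr1 from the 7.40th to the 42.7th.

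Promoter sequences from RefSeq (GRCm38.p6, 250 bases before to 50 after the annotated start) were found for 8 of the 10 genes, Egr1 and Ier2 having no entry. The 200 bases before the start are shown for Ier3, which rose most, for the pair called lower (Jun, Atf3), and for Junb, Fos and Dusp1, which were not called. Capitals mark matches to TGACG (the core of the CRE) on either strand, to the wider CRE-like pattern TNACNTCA on either strand, and to TATAAA on the gene's strand. Windows run 5′ to 3′ along the gene.
Junb, chr8:84978749-84978948, minus strand: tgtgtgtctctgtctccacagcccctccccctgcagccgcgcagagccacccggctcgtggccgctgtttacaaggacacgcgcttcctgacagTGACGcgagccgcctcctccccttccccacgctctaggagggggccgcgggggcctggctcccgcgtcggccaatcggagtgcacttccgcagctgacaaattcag
Ier3, chr17:35821513-35821712, plus strand: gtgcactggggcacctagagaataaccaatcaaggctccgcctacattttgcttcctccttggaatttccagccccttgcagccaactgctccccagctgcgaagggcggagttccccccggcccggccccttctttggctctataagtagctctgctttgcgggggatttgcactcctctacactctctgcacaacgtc
Jun, chr4:95052223-95052422, minus strand: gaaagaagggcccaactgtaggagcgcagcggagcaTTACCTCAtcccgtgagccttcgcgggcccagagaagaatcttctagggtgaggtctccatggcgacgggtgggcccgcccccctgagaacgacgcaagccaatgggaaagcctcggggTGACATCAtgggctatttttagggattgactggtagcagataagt
Atf3, chr1:191183334-191183533, minus strand: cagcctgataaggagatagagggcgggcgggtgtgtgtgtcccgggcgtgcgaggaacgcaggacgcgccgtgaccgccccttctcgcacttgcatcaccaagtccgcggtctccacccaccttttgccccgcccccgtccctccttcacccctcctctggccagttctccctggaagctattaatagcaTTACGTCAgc
Fos, chr12:85473690-85473889, plus strand: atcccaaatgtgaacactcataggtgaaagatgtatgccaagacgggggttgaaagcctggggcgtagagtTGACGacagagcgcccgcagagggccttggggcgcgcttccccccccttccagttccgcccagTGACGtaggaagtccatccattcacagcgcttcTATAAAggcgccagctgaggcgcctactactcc
Dusp1, chr17:26508473-26508672, minus strand: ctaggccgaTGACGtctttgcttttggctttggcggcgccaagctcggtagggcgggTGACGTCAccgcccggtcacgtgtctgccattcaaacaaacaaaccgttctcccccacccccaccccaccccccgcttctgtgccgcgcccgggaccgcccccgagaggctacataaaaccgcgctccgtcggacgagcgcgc

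The core TGACG was found in 5 of the 8 promoters (Fos, Fosb, Junb, Atf3 and Dusp1), where 20.8% of the 32851 promoters of the same length held it. The full palindrome TGACGTCA was found in Dusp1 only, at -143 to -136 from the start, against 1.79% of all promoters. Jun held TGACATCA at -45 to -38, and Atf3 held TTACGTCA at -10 to -3. The pattern TNACNTCA, which contains the palindrome, was chosen after these promoters had been read. It matched in 4 of the 8 (Jun, Jund, Atf3 and Dusp1) against 16.4% of all promoters, which is thus a description only. TATAAA lay in Fos at -33 to -28, and in Junb from the annotated start base itself, against 8.32% of all promoters. The CArG box that SRF binds (1.63% of all promoters) and the AP-1 site TGANTCA on either strand (7.81%) had no match in the 8 windows. TGACG or TNACNTCA was thus present in Jun, Atf3, Junb, Jund, Dusp1, Fos and Fosb, and Ier3 held neither. Ier3 was the only gene called higher that had a promoter entry, Egr1 and Ier2 having none. Motifs and the direction of change can therefore not be compared here. These are matches of letters within a short window.

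All 10 genes had an SSRP1 peak assigned to them in the deposited list, where 36.0% of the 15384 genes had one, and 7 had a SUPT16 peak, against 18.6%. The genes differed from each other in the length of DNA under the peaks. Egr1, Junb and Ier2 lay under SSRP1 peaks along their whole length and Jund along 88.0% of it, whereas 1.38% of all genes were covered for at least 50% of their length. That share is over genes of all lengths, and these 4 genes span only 1522 to 3750 bp. Among genes of 1000 to 5000 bp, 119 were covered for at least 50%, 534 for less and 1610 not at all. The same 4 genes were also the members covered by SUPT16 peaks for at least 50% (89.2% of Egr1, 79.9% of Junb, 55.5% of Jund and 100% of Ier2), as were 0.735% of all genes, and 93 genes in all met this for both proteins. The lists carry no value per ChIP replicate, so these lengths have no replicate error.

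The peak over Ier2 was 7252 bp long and ran from 3366 bp before the start to 2364 bp past the end of a gene of 1522 bp. Only 11 of the 10114 SSRP1 peaks were as long or longer, and the median peak measured 392 bp. Egr1 and Junb each lay under a peak of 5684 bp, a length that 20 SSRP1 peaks reached. At Egr1 the peak began 1136 bp before the start and ended 798 bp past the gene, and at Junb it began 2148 bp before and ended 1696 bp past. The Junb peak was also assigned to the neighbouring gene Prdx2, although no other annotated gene lay under it. At Jund a peak of 3626 bp began 344 bp inside the gene, and another of 1470 bp lay upstream, with the start site between them. SUPT16 peaks were shorter but lay in the same places: 3500 bp at Egr1, 3150 bp at Ier2, 1960 bp at Jund and 1470 bp at Junb were the longest within each gene. Of all bases under SUPT16 peaks at these genes, 100% at Egr1, 98.8% at Junb, 98.6% at Ier2 and 95.8% at Jund were also under an SSRP1 peak. SSRP1 peaks thus extended beyond both ends of the transcription unit at Egr1, Junb and Ier2, whereas the SUPT16 peak at Egr1 ended inside the gene and the one within Junb reached past neither end.

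At the other genes peaks covered less than 50% of the gene. Fos had a peak of 588 bp across its start, from -162 to 425, which covered 12.6% of the gene, and Ier3 one of 490 bp from -66 to 423, which covered 35.4%. Atf3 had a peak of 882 bp inside the gene from 229 to 1110 and one of 1764 bp upstream from -2025 to -262, with the start site free between them as at Jund. At Jun (686 bp, from -1506 to -821) and Dusp1 (490 bp, from -626 to -137) the SSRP1 peak lay wholly upstream, and at Fosb the assigned peak of 490 bp lay past the gene's end. SUPT16 peaks at Jun (420 and 210 bp, inside the gene), Dusp1 (210 bp, inside) and Fos (350 bp, upstream) shared no base with the SSRP1 peaks there. Fosb, Ier3 and Atf3 had no assigned SUPT16 peak. By overlap of at least 1 bp with the gene, 7 of the 10 genes were bound by SSRP1 (29.7% of all genes) and 6 by SUPT16 (15.8%).

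**Figure D3:**
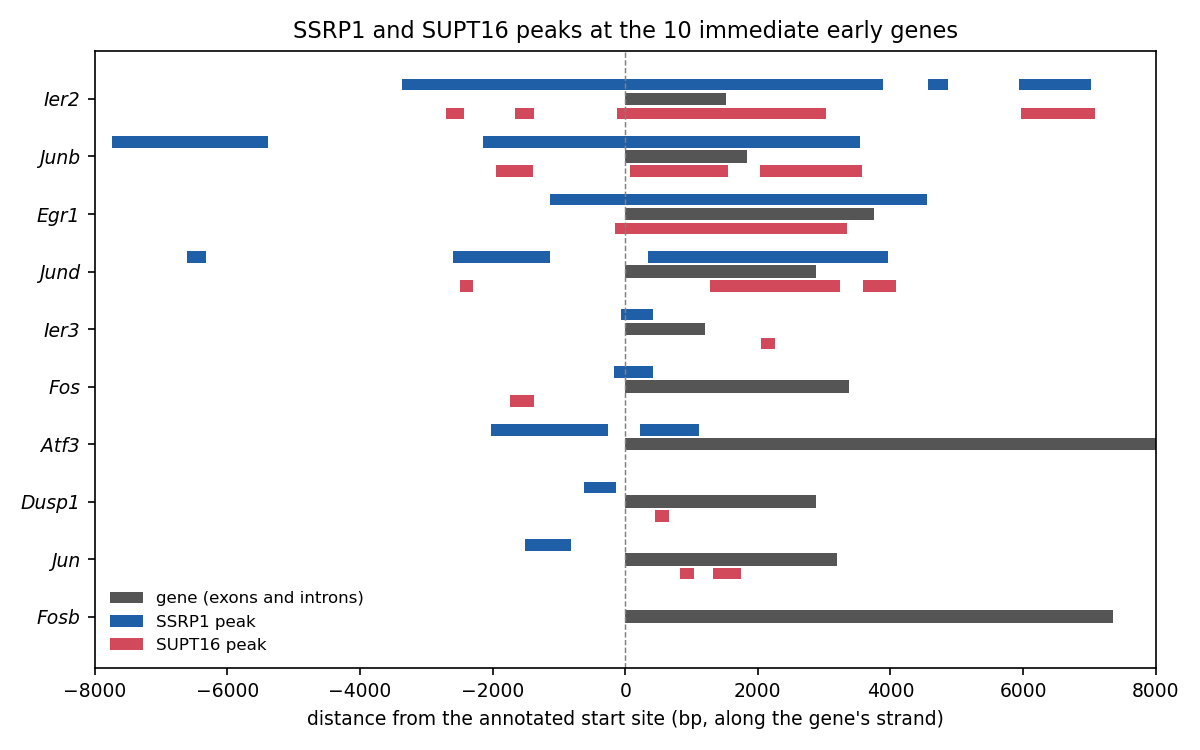
SSRP1 (blue) and SUPT16 (red) peaks at the 10 genes, by distance in bp from the annotated start site along the gene's strand, with the gene as a grey bar, ordered by the share of the gene under SSRP1 peaks. Peaks more than 8000 bp away are not drawn and Atf3 is cut off at the right. Ier2, Junb, Egr1 and Jund are covered along most or all of their length, and the other genes for less than 50%; Atf3 has a peak of 1764 bp before its start.

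The 4 genes under broad peaks had log2 fold changes between 0.92 and 1.40, all above 0, and the 5 others with values ranged from -2.64 (Atf3) to 1.59 (Ier3). A similar gradient was present across all genes, given here as a description. The median log2 fold change was -0.11 in 10814 genes without an SSRP1 peak in the gene, 0.09 in 4358 genes covered for less than 50% and 0.93 in 212 genes covered for at least 50%. In that order, 7.10%, 8.65% and 45.8% were called higher. Within the last class, 103 genes were covered in full. Their median span was 411 bp, and 58.3% of them were called higher. Gene length and level moved with the cover: the median gene spanned 18359, 22595 and 1454 bp in the 3 classes. Among genes of 1000 to 5000 bp, which hold all measured members but Atf3, the medians were -0.16, 0.29 and 0.76 for 1610, 534 and 119 genes, and the median control value per kb was 5.76, 10.7 and 35.9. After quantile normalisation these medians were 0.36, 0.44 and 0.54, with 19.5%, 19.5% and 23.5% called higher, against 10.7%, 18.4% and 31.9% with library-size values. Among those with a control value per kb of at least 20, the medians were 0.67, 0.82 and 0.92 for 322, 186 and 72 genes, and 30.7%, 36.6% and 36.1% were called higher. Junb, Jund and Ier2 are among the last of these groups, at log2 fold changes of 0.94, 0.92 and 1.31, and Egr1, with a lower control level, is not. The part of level in the relation at these genes was not tested further.

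In chromatin-associated RNA, which is enriched in transcripts still attached to DNA, the same 4 genes gave most reads. Ier2 had 29 and 35 counts in the 2 libraries, Jund 30 and 30, Junb 17 and 37 and Egr1 14 and 29, and they were the only members with at least 10 counts in both. The 95% exact Poisson intervals, which cover counting error only, were 19.4 to 41.6 and 24.4 to 48.7 for Ier2 and 7.65 to 23.5 and 19.4 to 41.6 for Egr1. Each of the 6 others had at most 9 counts in a library: Dusp1 8 and 7, Jun 5 and 9, Fos 6 and 4, Ier3 5 and 5, Fosb 2 and 7, and Atf3 0 and 5. The intervals of the 2 libraries for Atf3, 0 to 3.69 and 1.62 to 11.7, overlapped. Depth limited these values, since protein-coding genes took 5.55% and 9.34% of 3441643 and 3393923 counts and the 10 highest genes took 69.9% and 67.3%.

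Scaled by exon length as TPM and averaged over both libraries, Ier2 exceeded 96.1% of the 15433 protein-coding genes with a count, Junb 93.2%, Jund 88.4% and Egr1 80.9%. Egr1 stood out by the contrast with its level in the control RNA-seq libraries, which exceeded 7.40% of genes per kb. Ier3 followed at 70.1%, Dusp1 at 65.5%, Fos at 51.8% and Jun at 49.7%. Atf3 was at 36.6% in chromatin RNA against 77.9% in the control RNA-seq libraries, and Fosb at 35.0%. The chromatin value of Atf3 rested on 0 and 5 counts, which put it at 0% and 48.1% in the single libraries. The chromatin libraries came from cells without knockdown. The control RNA-seq libraries came from cells given a scramble vector and puromycin, and held total RNA depleted of ribosomal RNA. Both kinds were prepared separately and the percentiles are taken over different sets of genes, so the pairs are given side by side without a test.

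**Figure D4:**
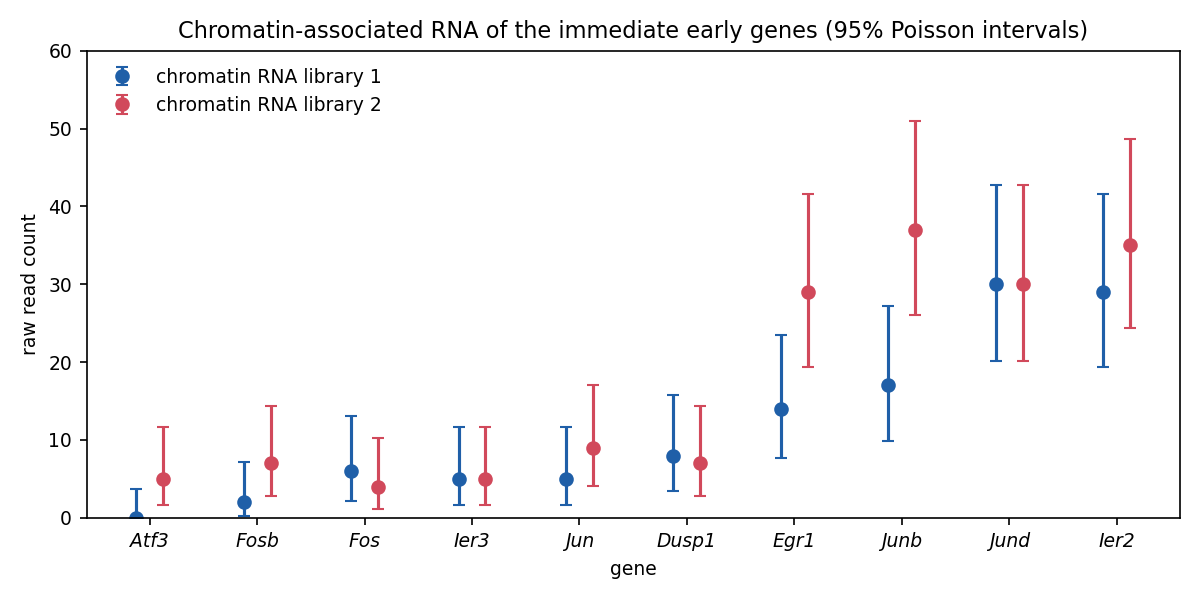
Raw read counts of the 10 genes in the 2 chromatin-associated RNA libraries, with 95% exact Poisson intervals, ordered by the sum of both libraries. Egr1, Junb, Jund and Ier2 have at least 14 counts in each library, and the other genes at most 9.

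Of 33 further immediate early genes, 28 had values and 8 were called, 3 higher and 5 lower, that is 10.7% and 17.9% against 8.07% and 20.6% of all genes, with a median log2 fold change of -0.36 against -0.03 over all genes. Egr2, Egr3, Fosl1, Nr4a2 and Nr4a3 had no value. Fosl2, the other Fos relative with a value, fell by 1.75 in log2 units (limma adjusted p = 2.41e-13), with 23.5 ± 1.47 in control and 6.64 ± 0.318 in KD libraries, which put it beside Jun. Gadd45g, a growth arrest gene, fell by 1.63 (adjusted p = 2.19e-10), and Sgk1, a serum-induced kinase, rose by 1.56 (adjusted p = 8.12e-19). The wider list thus had calls in both directions with library-size values, as the 9 genes did. Its median was -0.78 as CPM, -0.09 after quantile normalisation and 0.63 with spike-in scaling, where that of the 9 genes was 0.49, 0.64 and 1.94.

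Of 11 transcription factors and cofactors acting at serum response and cAMP response elements, none was called higher and 2 were called lower (18.2%, against 20.6% of all genes), with a median of -0.42 that was -0.84 as CPM, -0.03 after quantile normalisation and 0.56 with spike-in scaling. These were the myocardin-related SRF cofactors Mkl2, which fell from 47.7 ± 4.59 to 17.7 ± 1.46 (log2 fold change -1.40, adjusted p = 9.30e-14), and Mkl1, from 30.4 ± 0.503 to 13.2 ± 2.08 (-1.19, adjusted p = 9.14e-11). Of 21 genes of the MAP kinase cascade 2 were called higher (9.52%, against 8.07% of all genes), Nras at 1.07 and Map2k1 at 1.05, and the list had a median of 0.21. With spike-in scaling 15 of the 21 were called higher, after quantile normalisation 1, and as CPM 0 higher and 1 lower. Over all 15384 genes, 7394 were called higher and 1082 lower with spike-in scaling, and 1518 and 1656 after quantile normalisation. As CPM the counts over all genes were 343 and 4696. Among 16 pausing and elongation factors 1 was called higher (6.25%, against 8.07% of all genes). This was Larp7, which holds P-TEFb in its inactive complex, at 1.31. With spike-in scaling 12 of the 16 were called higher, and none after quantile normalisation or as CPM. Among 8 genes of heat shock protein families, 2 were called higher (25.0%, against 8.07% of all genes), Hspa5 at 1.36 and Hspa1b at 1.10. The range was 0.19 to 1.36. All 8 were called higher with spike-in scaling, and none after quantile normalisation or as CPM. As CPM, the counts called higher and lower became 1 and 10 for the further immediate early genes and 0 and 5 for the factors at response elements, and with spike-in scaling 11 and 0, and 4 and 0.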

How the data were processed

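The authors aligned RNA-seq reads to mm10 with STAR, counted them per gene with featureCounts and deposited, for 4 control and 4 KD libraries, a normalised signal per gene, scaled by library size and by spike-in RNA. Whole reads were recovered from these values (100% within 0.1 read). The library-size values did not sum to equal totals per library, and the paper describes TMM normalisation of the counts. The deposited limma tables hold fold changes, p-values and mean log2 expression from the authors' comparisons; of these only the mean log2 expression was used, for Fosb. A table of differentially used exons was not used. Raw chromatin RNA counts were deposited with exon lengths. Peaks, called by the authors over both ChIP replicates with PePr after Bowtie2 alignment, were deposited as positions with the nearest genes.

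For the main test, limma 3.58.1 (moderated with a mean-variance trend, Benjamini-Hochberg over 15384 genes) was fitted to log2(library-size value + 0.5), and a gene was called at a log2 fold change beyond 1 and adjusted p under 0.01. The alternatives were count tests on the recovered reads (edgeR 4.0.16, DESeq2 1.42.0), other scalings, pseudocounts and filters, the replicate number as a block, and fits without single libraries. The tests were tried on simulated counts with known changes. Pairs of replicates differed beyond counting noise (chi-square per degree of freedom 1.88 to 6.62). Peak cover, chromatin levels and promoter motifs were described without tests. Member genes, the other lists and the motifs were chosen with earlier results of these data known, the CRE-like pattern after the promoters had been read. All members were named; of the other lists, called genes without overlap between groups, at most the 3 of largest change. Marker genes of stem cells are named as examples. A result of the list of pausing and elongation factors is not reported here.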

Additional observations from a re-analysis of the deposited data

How the results depend on the processing

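Over all genes, 4405 calls became 8476 with spike-in scaling, 2097 when tested against a log2 fold change of 1 and 11192 by adjusted p alone, and lay between 4254 and 4635 with each library left out; edgeR gave 4711 and DESeq2 4762. Of the 9 immediate early genes, 5 calls became 3 as CPM of recovered reads, a scaling chosen after seeing the data, 8 by adjusted p alone, 7 with spike-in scaling and 4 when tested against a log2 fold change of 1, where Egr1 lost its call (limma adjusted p = 0.0696). With each library left out the number was 5 or 6, since Junb reached 1.02 without control replicate 1. Fos reversed with spike-in scaling (0.66) and quantile normalisation (0.23). The replicate numbers did not pair the libraries (correlations of same-numbered deviations from -0.06 to 0.02), and with a replicate block 4405 genes and 5 members were called. Members with an SSRP1 peak fell from 10 to 4 when at least 50% of the gene had to be covered. Members with a SUPT16 peak fell from 7 to 4 under that rule and with peaks of at least 500 bp only. The median chromatin RNA percentile of the members, 67.8, became 54.7 as CPM and was 60.6 to 76.6 with a library left out. Control depth limits Egr1 and Ier3 most, and chromatin depth limits the 6 genes under 10 counts.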
